A study of Mus musculus with 12 samples.

Results

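The 10 genes described here encode proteins that bind AU-rich elements or stem-loops in mRNA and set how long the mRNA lasts. They were listed by name and not by a threshold on measured values, though with earlier results of these data known, as Zfp36, Zfp36l1, Zfp36l2, Elavl1, Khsrp, Hnrnpd, Zc3h12a, Rc3h1, Rc3h2 and Tia1, and are 10 of the 38887 genes in the tables. All 10 had enough reads to be tested. The 12 RNA-Seq libraries came from bone marrow-derived macrophages (BMMs) of 3 WT and 3 IGF2BP2 KO mice aged 3 to 4 months, cultured for 6 days with 50 ng/ml M-CSF. Cells were kept untreated (M0) or received IL-4 (20 ng/ml, for 8 h, M2), which gave 4 groups of 3 libraries named WT M0, KO M0, WT M2 and KO M2. KO mice carried loxP sites around exons 4 and 5 of Igf2bp2 together with a Cre recombinase inserted into Lyz2, a gene active in macrophages, monocytes and neutrophils. WT mice from the same litters had no floxed Igf2bp2, and Cre was present in only part of them, so that Cre was not matched between the genotypes. IGF2BP2 is itself an mRNA-binding protein that stabilizes transcripts.

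AU-rich elements are runs of A and U in the 3' untranslated region (3'UTR) of short-lived mRNAs, among them those of many cytokines. Tristetraprolin, the product of Zfp36, and its relatives from Zfp36l1 and Zfp36l2 bind such elements through zinc fingers and recruit the CCR4-NOT deadenylase, which removes the poly(A) tail. Khsrp encodes KSRP, which also promotes decay, Hnrnpd encodes the isoforms of AUF1, Elavl1 encodes HuR, which protects bound mRNAs, and Tia1 encodes a repressor of translation. Zc3h12a encodes the endonuclease Regnase-1, which cleaves stem-loops in the 3'UTRs of inflammatory mRNAs, and Rc3h1 and Rc3h2 encode Roquin-1 and Roquin-2, which bind similar stem-loops. In macrophages, tristetraprolin is known for limiting TNF, and it binds the mRNA of its own gene as well.

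Libraries held between 20011792 and 39632770 counts, with the lowest totals in WT M2 (20011792 to 22744704). Igf2bp2 had 98.0 ± 20.7 CPM (counts scaled to the library total with TMM factors, mean ± SD, n = 3) in WT M0 and 90.8 ± 5.53 CPM in KO M0, and 211 ± 28.7 against 135 ± 9.54 CPM in M2. Reads of the exons that remain count towards the whole gene, so that these values cannot show the loss of exons 4 and 5. Lyz2, into which Cre was inserted, had 8463 CPM in WT M0 and 26.8 CPM in KO M0, and 4688 against 12.3 CPM in M2. KO thus differed from WT in Lyz2 as well as in Igf2bp2, with Cre not matched either. The parts of these in any difference between KO and WT cannot be told apart here. The 8 macrophage markers were all detected and summed to 5328 to 8274 CPM per library, whereas those of lymphocytes, mast cells and erythroid cells each summed to at most 0.117 CPM. Dendritic cell markers summed to 0.194 to 0.551 CPM in M0 and 1.54 to 2.11 CPM in M2 without overlap, mostly from Zbtb46, and the part of such cells in the IL-4 comparisons was not tested. Neutrophil markers summed to 9.27 to 24.1 CPM in WT M0 and 5.84 to 6.17 CPM in KO M0, with Ly6g at 0 in all 4 groups, and stromal markers to 29.8 to 53.3 and 7.94 to 30.0 CPM, so that the means of both were higher in WT and the stromal ranges overlapped. In M2 the stromal sums did not overlap (32.8 to 60.2 CPM in WT and 9.02 to 26.6 CPM in KO), and those of neutrophils were 5.01 to 14.1 and 5.31 to 6.52 CPM. IL-4 response markers summed to 149 to 308 CPM in M0 and 6759 to 7956 CPM in M2. In bulk RNA, fewer cells of a type and less RNA per cell cannot be told apart.

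Because several of these genes encode proteins that bind AU-rich elements, their own mRNAs were searched for them. The nonamer TTATTTATT, the core of the element bound by tristetraprolin, and the heptamer TATTTAT that it contains were counted on the transcribed strand of the longest annotated 3'UTR, with overlapping matches counted separately. The nonamer was found in 6 of the 10 genes, and in 8.2% of the 11665 tested genes with an annotated 3'UTR. Zfp36, Zfp36l1, Zfp36l2, Rc3h1 and Rc3h2 held 1 nonamer each. Elavl1 held 8, all within a short stretch near the end of a 3'UTR of 4218 bases, and Khsrp, Hnrnpd, Zc3h12a and Tia1 held 0. The heptamer was found in 7 of the 10 genes, Tia1 included, and in 30.2% of the tested genes. The 3'UTRs of the 10 genes had a median of 2436.5 bases against 1178 bases over the tested genes, and a longer 3'UTR has more room for a match. The sites of the 3 Zfp36 family genes, the first site of Elavl1 and, for comparison, sites of the targets Tnf and Ptgs2 are shown 5′ to 3′ as DNA letters of the GENCODE M21 transcripts, with the nonamer in capitals. Their positions on GRCm38 are chr7:28376951-28376979 (minus strand) for Zfp36, chr12:80108167-80108195 (minus) for Zfp36l1, chr17:84184914-84184942 (minus) for Zfp36l2, chr8:4285788-4285816 (minus) for Elavl1, chr17:35199667-35199695 (minus) for Tnf and chr1:150105790-150105818 (plus) for Ptgs2, all of them in a 3'UTR.
Zfp36: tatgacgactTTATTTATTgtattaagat
Zfp36l1: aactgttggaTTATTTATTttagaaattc
Zfp36l2: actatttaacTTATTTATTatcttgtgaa
Elavl1: gtcatgaaaaTTATTTATTtatttattta
Tnf: tatttattatTTATTTATTtgcttatgaa
Ptgs2: ctgaccatatTTATTTATTtatgtgaaga
In Tnf, with 5 nonamers, and in Elavl1 the nonamers overlapped or lay close together, whereas the 3 Zfp36 family genes had a single nonamer. Each of these 3 genes held 3 heptamers in its 3'UTR, including that within the nonamer.

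The level of each mRNA was compared between genes as TPM, which takes gene length into account. In WT M0 macrophages Hnrnpd was highest with 403 ± 28.5 TPM (mean ± SD, n = 3), followed by Zfp36l2 with 186 ± 5.46, Zfp36 with 150 ± 3.05 and Khsrp with 66.9 ± 3.80 TPM, and none of these neighbours overlapped in their ranges. In CPM, which take no account of length, Zfp36l2 (357 ± 22.8) lay above Hnrnpd (246 ± 17.5) in WT M0. The first rank of Hnrnpd thus depends on the length used for TPM. Zc3h12a (29.8 ± 1.85 TPM), Tia1 (25.6 ± 3.68) and Elavl1 (25.2 ± 0.281) came next, with ranges that overlapped from one gene to the next. Zfp36l1 had 13.0 ± 0.889 TPM, and Rc3h1 (9.95 ± 2.22) and Rc3h2 (7.42 ± 0.637), whose ranges overlapped, were lowest. In KO M0 the order of the first 4 genes and of the last 3 was the same, while Tia1, Elavl1 and Zc3h12a in between overlapped from one gene to the next. After IL-4 the order differed, since Hnrnpd (326 ± 9.82 TPM in WT M2) was now followed by Zfp36 (225 ± 17.7), Zfp36l1 (122 ± 15.2), Zfp36l2 (84.6 ± 7.74) and Zc3h12a (70.6 ± 2.53). KO M2 macrophages had the same order, and within both M2 groups the ranges of these neighbours were apart.

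**Figure D1:**
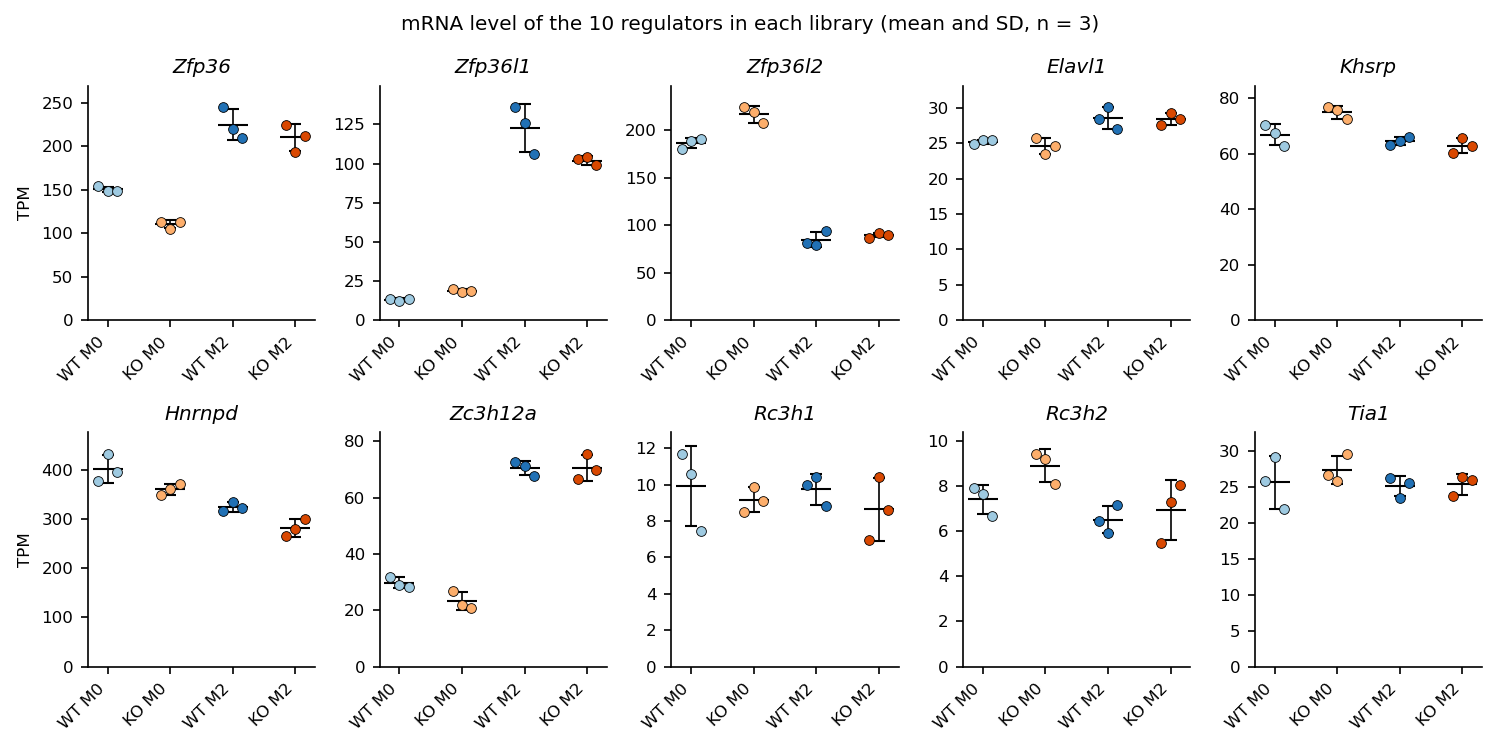
TPM of the 10 genes in each library by group (points), with mean and SD (bars, n = 3), each panel on its own axis from 0. Zfp36l1, Zfp36 and Zc3h12a are higher and Zfp36l2 is lower in both M2 groups than in both M0 groups, while the TPM of Rc3h1 and Tia1 overlap between all groups.

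To determine how IL-4 changed these genes, M2 was compared with M0 in each genotype with edgeR's quasi-likelihood test, in a model over all 12 libraries with Benjamini-Hochberg adjustment over 12846 genes (called at adjusted p under 0.05). In WT, 4 of the 10 genes rose and 3 fell, where 24.9% of all genes tested rose and 25.1% fell. In KO, the same 4 genes rose and 4 fell, against 26.8% and 26% of all genes. Since so many genes moved, these counts say little about the 10 genes, and each is given with the size of its change. The following values per library are CPM, which compare a gene between libraries and not with other genes.

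Zfp36l1 rose most. It had 20.9, 19.0 and 22.7 CPM in WT M0 and 227, 213 and 177 CPM in WT M2, and 31.3, 29.0 and 29.9 CPM in KO M0 and 184, 173 and 167 CPM in KO M2. All M2 libraries lay far above all M0 libraries, by 3.30 on the log2 scale in WT (SE 0.09, edgeR adjusted p = 3.38e-11) and 2.54 in KO (SE 0.09, edgeR adjusted p = 1.95e-10), which is 9.88-fold and 5.80-fold. Zfp36l2 went the other way, from 335, 356 and 380 to 162, 158 and 186 CPM in WT and from 426, 422 and 400 to 183, 181 and 180 CPM in KO. The groups did not overlap, and the level fell by 1.08 (SE 0.06) on the log2 scale in WT and by 1.20 (SE 0.06) in KO (edgeR adjusted p = 2.6e-08 and 9.44e-09). Zfp36 rose from 141, 139 and 146 to 241, 219 and 208 CPM in WT (log2 fold change 0.65, SE 0.07, edgeR adjusted p = 1.16e-05) and from 107, 101 and 108 to 236, 191 and 211 CPM in KO (1.02, SE 0.07, edgeR adjusted p = 1.62e-07). These calls held in all fits that left 1 library out and in all other settings tried.

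The composition of the family mRNA shifted accordingly. Of the summed TPM of the 3 genes, which was 349 ± 2.52 TPM in WT M0 and 432 ± 26.6 TPM in WT M2, Zfp36l1 took 3.71 ± 0.248% in WT M0 and 28.3 ± 2.17% in WT M2. The share of Zfp36l2 was 53.3 ± 1.22% in WT M0 and 19.7 ± 2.76% in WT M2, and that of Zfp36 was 43.0 ± 1.12% and 52.0 ± 0.889%. In KO M0, Zfp36l2 took 62.7 ± 1.41%, Zfp36 31.9 ± 1.27% and Zfp36l1 5.39 ± 0.138%, and none of the 3 shares overlapped with those of WT M0. In KO M2 they were 22.2 ± 1.26%, 52.4 ± 2.15% and 25.4 ± 1.04%, each with a range that overlapped with that of WT M2. Zfp36l3, the fourth family gene, did not exceed 0.0323 CPM in any library and was not tested. Each of the 3 genes had counts that were whole numbers in all 12 libraries, so that no fractional assignment of reads was seen among them.

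**Figure D2:**
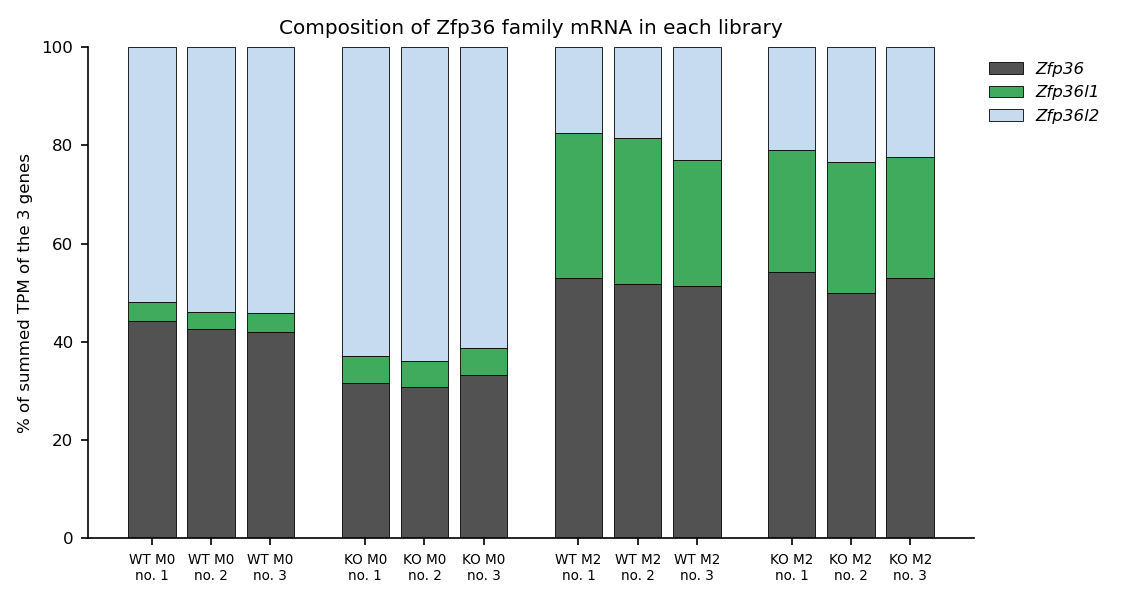
Share of Zfp36, Zfp36l1 and Zfp36l2 in their summed TPM (%, stacked to 100) in each of the 12 libraries. Zfp36l2 makes up 51.9 to 64.0% in the M0 libraries and 17.6 to 23.4% in the M2 libraries, and Zfp36l1 3.42 to 5.49% and 24.7 to 29.7%.

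Zc3h12a was the other gene with a large change. In WT it rose from 39.9, 38.1 and 39.1 CPM to 95.9, 97.3 and 90.9 CPM (log2 fold change 1.28, SE 0.06, edgeR adjusted p = 1.93e-09) and in KO from 32.3, 31.0 and 27.9 CPM to 98.0, 103 and 95.8 CPM (1.71, SE 0.06, edgeR adjusted p = 1.42e-10). The M0 and M2 libraries did not overlap in either genotype. Of its family, Zc3h12c fell by 1.37 (SE 0.13) on the log2 scale in WT and by 1.28 (SE 0.13) in KO. Zc3h12d was not called in WT (-0.09, SE 0.10) and fell in KO (-0.34, SE 0.10, edgeR adjusted p = 0.0103). Zc3h12b did not exceed 0.360 CPM and was not tested.

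The remaining genes moved by at most 0.30 on the log2 scale in either direction. Elavl1 rose, from 79.7, 82.8 and 87.2 to 97.9, 104 and 92.7 CPM in WT (log2 fold change 0.24, SE 0.05, edgeR adjusted p = 0.0023) and from 84.6, 78.0 and 82.0 to 101, 100 and 98.1 CPM in KO (0.29, SE 0.05, edgeR adjusted p = 0.000472). Hnrnpd fell, from 227, 261 and 249 to 206, 219 and 204 CPM in WT and from 219, 228 and 233 to 187, 185 and 190 CPM in KO, with log2 fold changes of -0.23 and -0.28 (SE 0.05 each, edgeR adjusted p = 0.00341 and 0.000789). For both genes every M2 library lay outside the range of the M0 libraries of its genotype. Khsrp was called in KO alone, where it fell from 165, 165 and 159 to 145, 147 and 143 CPM (-0.17, SE 0.04, edgeR adjusted p = 0.00231). In WT the Khsrp groups overlapped (148, 144 and 142 against 143, 147 and 149 CPM, 95% interval of the log2 fold change -0.07 to 0.10). The difference between these 2 Khsrp responses was -0.18 (SE 0.06) and not called (edgeR adjusted p = 0.0931).

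The Roquin genes differed in their calls. Rc3h2 fell from 35.8, 36.3 and 33.7 to 29.0, 27.8 and 29.1 CPM in WT (log2 fold change -0.30, SE 0.08, edgeR adjusted p = 0.00482) and from 37.4, 36.1 and 36.5 to 27.7, 32.9 and 35.1 CPM in KO (-0.20, SE 0.07, edgeR adjusted p = 0.0355), without overlap between M0 and M2. The KO call was lost in 5 of the 12 fits without 1 library and with limma on log2(TPM + 0.1), and the WT call with both limma fits. Rc3h1 had log2 fold changes of -0.11 (95% interval -0.28 to 0.07) in WT and -0.06 (-0.23 to 0.12) in KO, with all libraries between 39.1 and 53.8 CPM, and was not called. Tia1 was not called either, with 0.08 (-0.05 to 0.20) in WT and -0.04 (-0.16 to 0.08) in KO and all libraries between 36.7 and 43.0 CPM, although its WT M2 libraries (40.3, 40.1 and 41.9 CPM) all lay above its WT M0 libraries (39.6, 39.8 and 36.7 CPM).

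**Figure D3:**
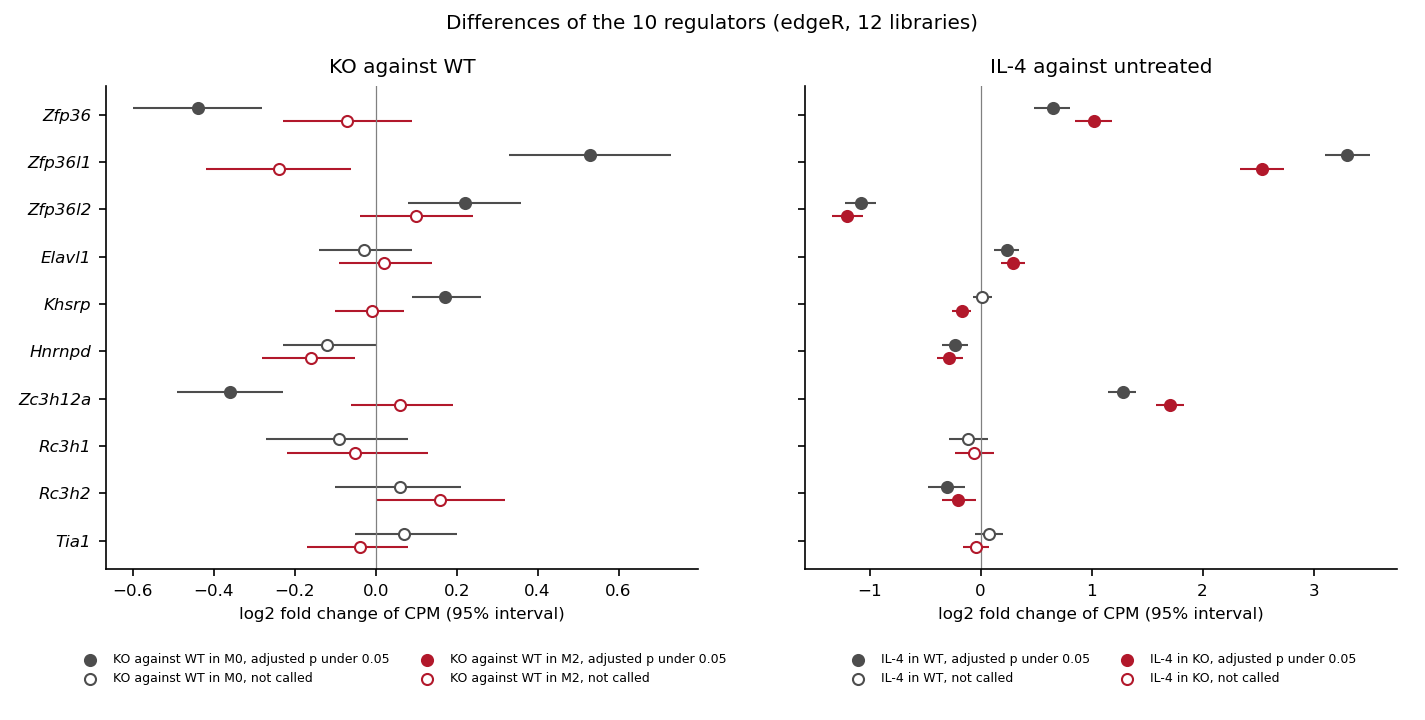
log2 fold changes of CPM of the 10 genes between KO and WT (left, in M0 and M2) and after IL-4 (right, in WT and KO), with 95% intervals from edgeR; filled points were called at adjusted p under 0.05. In M0, 5 genes are called between the genotypes and in M2 none, whereas the changes after IL-4 reach 3.30 in WT.

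Next, KO was compared with WT in M0 macrophages. Zfp36l1, Zfp36l2 and Khsrp were higher in KO and Zfp36 and Zc3h12a were lower, so that 3 of the 10 genes were called higher and 2 lower, where 5.5% of all genes tested were higher and 4.27% lower. Zfp36 had 107, 101 and 108 CPM in KO and 141, 139 and 146 CPM in WT, which is -0.44 on the log2 scale (SE 0.07, 95% interval -0.60 to -0.28, edgeR adjusted p = 0.00393). Zc3h12a had 32.3, 31.0 and 27.9 CPM in KO and 39.9, 38.1 and 39.1 CPM in WT (-0.36, SE 0.06, edgeR adjusted p = 0.0031). In both genes every KO library was below every WT library. Zfp36l1 had 31.3, 29.0 and 29.9 CPM in KO and 20.9, 19.0 and 22.7 CPM in WT (0.53, SE 0.09, edgeR adjusted p = 0.00462), with every KO library above every WT library. These 3 calls held in all 12 fits without 1 library and in the 7 other settings.

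The other 2 calls in M0 were less stable. Zfp36l2 had 426, 422 and 400 CPM in KO and 335, 356 and 380 CPM in WT, a difference of 0.22 on the log2 scale (SE 0.06, edgeR adjusted p = 0.0457). It was no longer called in 7 of the 12 fits with 1 library left out, with both limma fits and after thinning to equal depth. Khsrp had 165, 165 and 159 CPM in KO against 148, 144 and 142 CPM in WT (0.17, SE 0.04, edgeR adjusted p = 0.0169), and its call was lost in 3 of these 12 fits and with both limma fits. For both genes the libraries of the 2 genotypes did not overlap. The share of all genes tested with such a separation was not counted, here or for the other genes. Without the second WT M0 library, or without the first or the second KO M0 library, 3 of the 10 genes were called in place of 5. Elavl1 (-0.03, 95% interval -0.14 to 0.09), Hnrnpd (-0.12, -0.23 to 0.00), Rc3h1 (-0.09, -0.27 to 0.08), Rc3h2 (0.06, -0.10 to 0.21) and Tia1 (0.07, -0.05 to 0.20) were not called. The neutrophil, stromal and IL-4 response markers, which were also higher in WT M0 than in KO M0 (281 ± 42.5 against 164 ± 13.0 CPM for the last, mostly Mrc1), moved with this comparison, and their part in it was not tested.

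In M2 macrophages 0 of the 10 genes were called between KO and WT, with edgeR, with DESeq2 and with limma, where 1.21% of all genes tested were higher and 1.46% lower in KO with edgeR. Before adjustment, edgeR's p was under 0.05 for 2 genes, with 0.0137 for Zfp36l1 and 0.00983 for Hnrnpd. Zfp36l1 had 184, 173 and 167 CPM in KO and 227, 213 and 177 CPM in WT, with groups that overlapped and a log2 fold change of -0.24 (95% interval -0.42 to -0.06, edgeR adjusted p = 0.138), opposite in sign to that in M0. Hnrnpd had 187, 185 and 190 CPM in KO against 206, 219 and 204 CPM in WT, with groups that did not overlap and a log2 fold change of -0.16 (-0.28 to -0.05, edgeR adjusted p = 0.12). For Zfp36 (-0.07, -0.23 to 0.09) and Zc3h12a (0.06, -0.06 to 0.19), the interval in M2 did not include the value measured in M0. Without the third WT M2 library or the first KO M2 library 1 gene was called. The number of calls over all genes was also sensitive to single libraries in M2, with 344 in the full fit and 25 without the third KO M2 library.

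Whether KO and WT macrophages responded differently to IL-4 was tested directly, as the log2 fold change in KO minus that in WT. Zc3h12a was called with a positive difference and Zfp36l1 with a negative one, where 1.11% and 2.13% of all genes tested were. The difference was 0.43 (SE 0.08, 95% interval 0.25 to 0.60, edgeR adjusted p = 0.0151) for Zc3h12a and -0.77 (SE 0.12, -1.04 to -0.50, edgeR adjusted p = 0.00755) for Zfp36l1. Both calls held in all 12 fits without 1 library, while that of Zc3h12a was lost with limma on TPM. For Zfp36 the difference was 0.37 (SE 0.10, edgeR adjusted p = 0.0769), and it was called with the mouse as a block (edgeR adjusted p = 0.0274) and with DESeq2. Over all genes the number of calls for this difference was 416, and 1003 with the mouse as a block. For these 3 genes the M0 levels were apart between genotypes and the M2 levels were not called apart, and since the same M0 and M2 libraries enter both comparisons, the difference restates those values. Khsrp (-0.18, SE 0.06) was called with DESeq2 (adjusted p = 0.0149) and not with edgeR. The other 6 genes had differences between -0.12 and 0.10 and were not called.

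The machinery on which these proteins act was then examined with lists of genes, given as counts beside the percentages for all genes above. In M0 these were 5.5% higher and 4.27% lower in KO, and in M2 1.21% and 1.46%. In M0, the RNA exosome and SKI complex, which degrade RNA from the 3' end, had 4 of 15 tested genes lower in KO and 0 higher, with a median log2 fold change of -0.05. The 4 were Exosc1 (-0.24, SE 0.06), Exosc2 (-0.21, SE 0.05), Exosc10 (-0.18, SE 0.05) and Exosc8 (-0.16, SE 0.04), all subunits of the exosome, with edgeR adjusted p between 0.0222 and 0.04. All 4 calls were lost without the filter on low counts, and limma on log2(TPM + 1) called 2 genes of the list. Without single libraries between 0 and 4 genes of the list were called, and Exosc8 lost its call in 8 of 12 such fits. Of 20 deadenylation genes, Btg1 was higher (0.39, SE 0.09) and Tob2 lower (-0.53, SE 0.05), both encoding proteins that bind the CCR4-NOT deadenylase. Tob2 had 51.2 ± 1.73 CPM in WT M0 and 35.4 ± 1.11 CPM in KO M0 and kept its call in all 12 fits without 1 library, while Btg1 lost it in 2. None of the 18 related RNA-binding proteins, 19 genes of decapping and 5' to 3' decay and 10 genes of nonsense-mediated decay were called with edgeR in M0, with 2, 2 and 0 at an unadjusted p under 0.05 and 0 in each list with DESeq2. Limma on log2(TPM + 1) called 1 decapping gene, and edgeR without WT M0 replicate 3 called 1 related RNA-binding protein.

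Upstream of these proteins, p38 kinases and MK2 phosphorylate tristetraprolin and NF-kB drives transcription of inflammatory genes. Of 14 genes of this control in M0, Mapk14, which encodes p38 alpha, was higher in KO (0.31, SE 0.06), and Mapk11, Map2k3, Mapkapk3 and Nfkb1 were lower. Map2k3, a kinase that activates p38, had 180 ± 6.89 CPM in WT and 144 ± 4.68 CPM in KO (-0.32, SE 0.05), and Nfkb1, which encodes the p105 and p50 subunit, had 144 ± 3.77 CPM in WT and 115 ± 0.911 CPM in KO (-0.33, SE 0.06). Neither overlapped between genotypes. Single libraries decided the call of Mapk11 (-0.39, SE 0.10) in 5 of 12 fits and that of Mapkapk3 (-0.22, SE 0.05) in 3. The call of Mapk11 was also lost with limma on log2(TPM + 0.1) and after thinning, and that of Mapkapk3 with both limma fits. Without 1 library between 3 and 6 of the 14 genes were called. DESeq2 called 6 and limma on log2(TPM + 1) called 4.

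In M2, N4bp1, encoding an RNase related to Regnase-1 (-0.34, SE 0.08), Tob2 (-0.20, SE 0.05) and Eif4enif1, encoding the 4E-T protein that links cap binding to decay (-0.20, SE 0.04), were lower in KO. They were the only calls of this edgeR fit in the 6 lists of related regulators, decay machinery and upstream control, and each was lost in at least 8 of the 12 fits without 1 library. DESeq2 called 1 related RNA-binding protein, 2 deadenylation genes and 2 decapping genes, and edgeR with the replicate number as a block 1, 0 and 2. The stromal markers, which were higher in WT M2 than in KO M2, moved with this comparison, and their part in it and in the calls of target transcripts in M2 was not tested. The exosome, nonsense-mediated decay and upstream lists had 0 calls in M2 with edgeR, with 2, 2 and 4 genes at an unadjusted p under 0.05 and 1, 0 and 1 with DESeq2.

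IL-4 moved individual genes of this machinery in both directions. Btg1 fell by 1.68 (SE 0.09) on the log2 scale in WT and by 1.81 (SE 0.09) in KO, from 162 ± 18.2 to 50.5 ± 6.15 CPM and from 211 ± 6.78 to 60.3 ± 2.35 CPM. Patl1, a scaffold of decapping, rose by 0.90 (SE 0.06) in WT and 0.59 (SE 0.06) in KO, and Smg5, a factor of nonsense-mediated decay, by 0.93 (SE 0.05) and 0.97 (SE 0.05). Pcbp2, a poly(C)-binding protein, rose by 0.65 (SE 0.04) and 0.64 (SE 0.04), and N4bp1 by 0.86 (SE 0.08) and 0.46 (SE 0.08). Of the exosome and SKI list 4 rose and 1 fell of 15 in WT, and 8 rose and 2 fell in KO, with medians of 0.04 and 0.18 on the log2 scale. With limma on log2(TPM + 1) 5 were called in each genotype, and without KO M0 replicate 2 there were 6 calls in KO. None of its genes was called for the difference between the responses with edgeR or DESeq2, with 4 at an unadjusted p under 0.05. Deadenylation genes had 4 rising and 6 falling of 20 in WT and 2 and 5 in KO, and those of decapping 3 and 6 of 19 in both. Without WT M2 replicate 2 the decapping calls in WT numbered 5 in place of 9. Of all genes tested, 24.9% rose and 25.1% fell in WT and 26.8% and 26% in KO, so that these counts say little about the lists. Of the upstream genes, Nfkb1 rose by 1.47 (SE 0.06) in WT and by 1.88 (SE 0.07) in KO, while Dusp1, a phosphatase of p38, fell, with -1.56 (SE 0.21) and -1.97 (SE 0.20).

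Transcripts that the 10 proteins are known to bind were followed in 2 further lists. Of all genes tested, 5.5% were called higher and 4.27% lower in KO in M0, and 1.21% and 1.46% in M2. Of 24 mRNAs with AU-rich elements, 18 could be tested, since Il6, Il12b, Il23a, Csf2, Csf3 and Lif did not exceed 0.591 CPM. The list was taken from background knowledge, and in the annotated 3'UTRs 8 of the 18 held the nonamer and 15 the heptamer, while Ccl2, Plaur and Myc held neither. In M0, Tnf, Il1b and Ptgs2 were lower in KO and none was higher, with a median log2 fold change of -0.31 over the 18, against 0.00 over all genes tested. Tnf had 124 ± 17.7 CPM in WT M0 (range 110 to 144) and 77.2 ± 3.07 CPM in KO M0 (74.2 to 80.4), or -0.68 on the log2 scale (SE 0.08). Ptgs2, which encodes cyclooxygenase-2, had 11.4 ± 0.930 and 6.30 ± 0.531 CPM (-0.85, SE 0.12). Both kept their calls in all 12 fits without 1 library, while Il1b (4.51 ± 1.11 and 1.80 ± 0.497 CPM, -1.34, SE 0.38) lost it in 8. The number of calls in this list was 7 with DESeq2, 5 with the replicate number as a block and 2 with limma on log2(TPM + 1). Without 1 library it ranged from 2 to 8, with 8 without WT M0 replicate 3. In M2, Tnf (24.6 ± 0.971 and 27.2 ± 1.57 CPM) and Ptgs2 (25.7 ± 3.96 and 25.5 ± 2.02 CPM) were not called, and Plaur, the urokinase receptor, which held neither motif, was the only call (0.37, SE 0.07), with a median of 0.03 over the list. Leaving out single libraries ended this call in 5 of 12 fits and gave 0 to 2 calls among the 18, and DESeq2 called 3.

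After IL-4, 7 of the 18 AU-rich transcripts rose and 9 fell in WT, and 7 rose and 8 fell in KO, with medians of -0.56 and -0.35 on the log2 scale. Of all genes tested, 24.9% rose and 25.1% fell in WT, and 26.8% and 26% in KO. Tnf fell in WT (-2.33, SE 0.09) and in KO (-1.51, SE 0.09), as did Cxcl1 (-2.34, SE 0.42, and -2.50, SE 0.41) and Fos (-2.20, SE 0.16, and -2.25, SE 0.16). Ptgs2 rose by 1.18 (SE 0.11) in WT and by 2.02 (SE 0.11) in KO. Transcripts with opposite responses thus stood side by side in the list, also among those with the nonamer, such as Tnf with 5 and Ptgs2 with 1. The IL-4 response was called different in KO for Tnf (0.82, SE 0.13) and Ptgs2 (0.84, SE 0.16), in the positive direction for both. As both were called lower in KO in M0 and not called in M2, and the same libraries enter, the difference restates those values. Of the 18 transcripts, 6 were called for this difference with DESeq2, 7 with the mouse as a block and 1 with limma on log2(TPM + 1).

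The other list held 12 transcripts with stem-loops bound by Regnase-1 or Roquin, of which 9 were tested and Il6, Il12b and Icos were not. It shares Tnf and Ptgs2 with the AU-rich list and contains Zc3h12a itself. In M0, 4 of the 9 were lower in KO, namely Zc3h12a, Nfkbid, Ptgs2 and Tnf, and 0 were higher. The median was -0.28 on the log2 scale, and of all genes tested 4.27% were lower and 5.5% higher. Nfkbid, a regulator of NF-kB, had 32.6 ± 2.36 CPM in WT M0 and 23.1 ± 1.46 CPM in KO M0 (-0.50, SE 0.09) and kept its call without any 1 library. In M0, DESeq2 and edgeR with the replicate number as a block each called 6 of the 9, and limma on log2(TPM + 1) called 4. Without 1 library the M0 calls ranged from 4 to 6. In M2, Tfrc, the transferrin receptor, was the only call of the edgeR fit, with 1081 ± 47.8 CPM in WT and 808 ± 39.4 CPM in KO (-0.42, SE 0.09), which was lost in 5 of the 12 fits without 1 library. DESeq2 called 2 of the 9, as did edgeR with the replicate number as a block, where Calcrl was added (-0.32, edgeR adjusted p = 0.0199), and without 1 library the calls ranged from 0 to 2. With IL-4 in WT, Nfkbiz fell by 3.47 (SE 0.16) and Tfrc rose by 1.71 (SE 0.09), in a list of 4 rising and 3 falling. In KO 5 rose and 3 fell. Of all genes tested, 24.9% rose and 25.1% fell in WT, and 26.8% and 26% in KO.

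**Figure D4:**
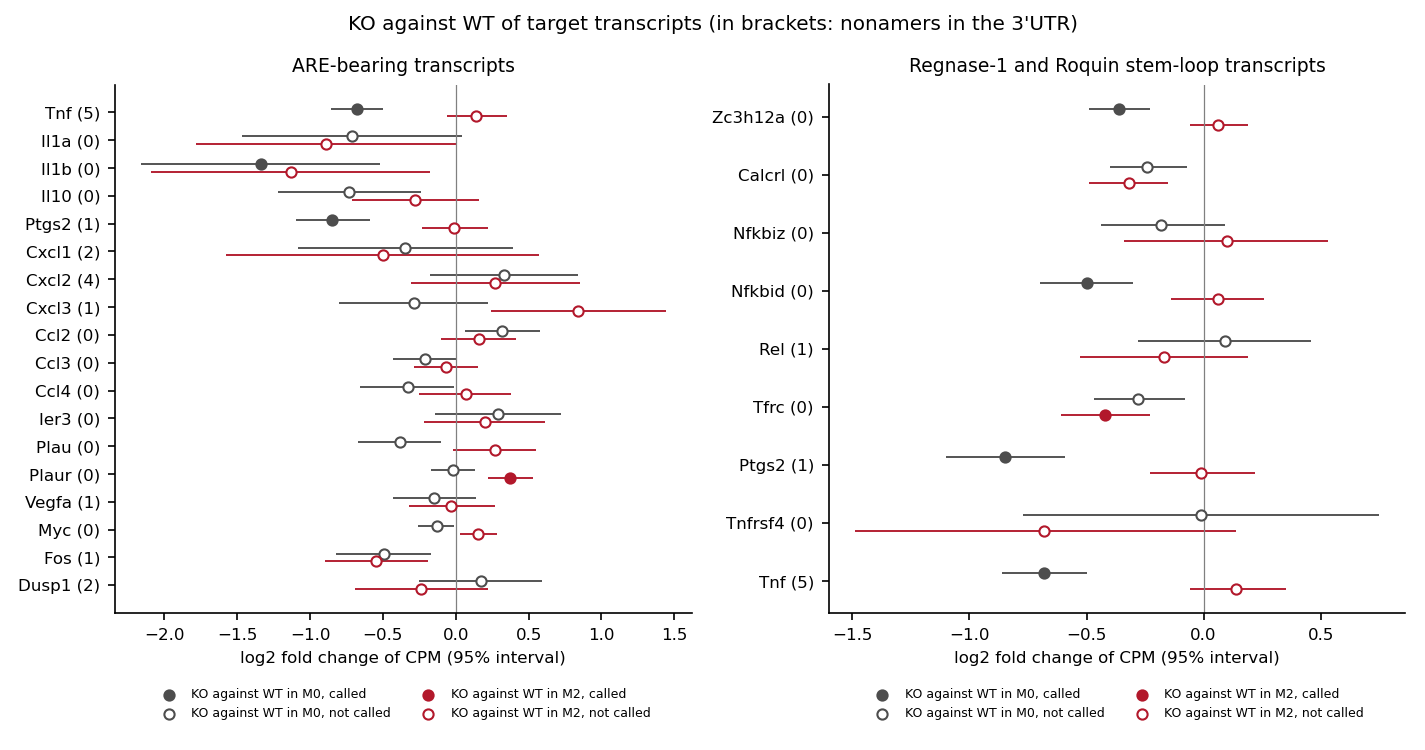
log2 fold changes of CPM between KO and WT in M0 and M2 with 95% intervals from edgeR for the tested mRNAs with AU-rich elements (left) and with stem-loops (right); the number of nonamers in the 3'UTR is in brackets and filled points were called. In M0, Tnf, Ptgs2, Il1b, Zc3h12a and Nfkbid are called lower in KO, and in M2 Plaur is called higher and Tfrc lower.

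To see whether such differences went with the nonamer across the transcriptome, the tested genes were divided by the number of nonamers in their 3'UTR, with 10705 genes without it, 747 with 1 and 213 with 2 or more. In M0 the median difference of KO from WT on the log2 scale was 0.000, -0.005 and -0.006, and 4.34%, 5.22% and 5.16% of the genes were called lower in KO. Calls for higher levels in KO made up 5.7%, 7.23% and 6.1%. In M2 the medians were -0.001, -0.047 and -0.034, with 1.24%, 0.669% and 1.41% called higher in KO and 1.49%, 2.28% and 2.82% lower. After IL-4 in KO, 28.7%, 24.8% and 24.4% of the genes rose and 27%, 33.3% and 32.9% fell, and in WT 26.5%, 26.8% and 26.8% rose and 26.1%, 28.5% and 31.9% fell. For the difference between the responses, 1.21%, 1.07% and 0.939% were called positive and 2.23%, 3.35% and 3.29% negative. The 3'UTRs differed in length between these classes, with medians of 1094, 2217 and 2745 bases, and the part of length in these percentages was not tested.

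Finally, the genes with the most similar course over the 12 libraries were determined by Pearson's r of log2 CPM among the 9746 genes that averaged 5 CPM or more. As M0 and M2 libraries form separate groups, r mainly compares how genes follow IL-4 and is given without a test. Zfp36l1 was closest to Cd200r1 (r = 0.998), a receptor of alternatively activated macrophages, Rab11fip5 (0.997) and Dse (0.996). Zfp36l2 was closest to Gprc5b (0.997), Tmem43 (0.996) and Tnfsf9 (0.996), and Zfp36 to Ppan (0.989), Fcgrt (0.985) and Paf1 (0.983). Zc3h12a was closest to Tmem268 (0.996), Nfkb1 (0.995) and Prmt7 (0.993), where Nfkb1 also belongs to the list of upstream genes. For Elavl1, Khsrp, Hnrnpd and Rc3h2, which changed little, the highest r was 0.975 (Zpr1), 0.960 (Tbl1xr1), 0.947 (Tpm4) and 0.940 (Klhdc10). Zfp36l1, Elavl1 and Hnrnpd overlap another tested gene on the opposite strand (Gm26669, Ccl25 and Gm17092), and whether strand was used in counting is not given in the sources used here.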

How the data were processed

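The 12 libraries (poly(A) RNA, directional kit, 75 nt single reads) were processed by the authors with FastQC 0.11.2, Grape-nf 1.1.3 and Nextflow 20.10.0 on GRCm38. The authors deposited, per library, a table of 38887 genes with expected counts (estimated reads per gene) and TPM. Tables of the authors' DESeq2 1.40.2 comparisons hold fold changes and p-values, and only their gene symbols (21000) were used, with 16570 further symbols from the reference annotation. The release of the annotation behind the deposited counts is not given in the sources used here.

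Groups were taken from the sample titles. Expected counts were rounded, filtered with filterByExpr by group and fitted with edgeR 4.0.16 in R 4.3.3 (TMM, quasi-likelihood F test, 1 coefficient per group, 12846 genes, biological coefficient of variation 8.1%), with calls at a Benjamini-Hochberg adjusted p under 0.05. SE and 95% intervals follow from each fold change and F value. Same-mouse M0 and M2 libraries deviated together (correlations 0.331, 0.103 and 0.364 in WT and 0.166, 0.16 and 0.209 in KO), so that the mouse pairs the IL-4 comparisons, whereas equal numbers of WT and KO did not (-0.068 to 0.04). The main fit, and with it the SE and p-values given first, did not use this pairing. It was used in the mouse block, which is among the alternatives. Within each of the 4 groups, no 2 libraries agreed within sampling noise. Alternatives were DESeq2 1.42.0, RLE size factors, no filter, limma 3.58.1 on log2(TPM + 1) and log2(TPM + 0.1), replicate blocks, leaving out each library in turn and, added after the data were seen, thinning to the smallest total. The edgeR script was tested on simulated data. The smallest p of an exact permutation test of 3 against 3 libraries is 0.1, so none was run.

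The 10 genes and all lists were chosen with earlier results of these data known. Named are the 10 genes, of each other list up to 3 called genes per comparison with the largest change and a mean of at least 1 CPM, and the 3 genes most like a member. Named after their values were seen were Exosc8 and Mapkapk3 in M0, Mapk14, Calcrl in M2, Zc3h12b, Zc3h12d, the transcripts without a motif, the genes called for the difference only with the mouse block, and the other genotype's IL-4 values of genes named in WT or KO. 3'UTRs and positions are those of GENCODE M21 (GRCm38). Protein sequences were not used here, and Exosc6 was not analysed here.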

Additional observations from a re-analysis of the deposited data

Results flagged for a closer look

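The response to IL-4 was called different between KO and WT for 12 of the 129 distinct genes tested in the lists (9.3%). The test was edgeR's test of the difference, with Benjamini-Hochberg adjustment over all genes and no mouse block. Of all 12846 genes tested 416 were called, 1.11% with a positive and 2.13% with a negative difference. The lists were chosen with earlier results of these data known, so that their share cannot show that they stand out. Zfp36l1 (-0.77 on the log2 scale, KO minus WT, edgeR adjusted p = 0.00755) and Zc3h12a (0.43, edgeR adjusted p = 0.0151) belong to the 10 regulators. Among the target transcripts Tnf (0.82, edgeR adjusted p = 0.00596), Ptgs2 (0.84, edgeR adjusted p = 0.015) and Nfkbid (0.56, edgeR adjusted p = 0.036) had positive differences. Of the upstream genes, Map2k3 (0.46, edgeR adjusted p = 0.00473), Nfkb1 (0.42, edgeR adjusted p = 0.0279) and Mapkapk3 (0.38, edgeR adjusted p = 0.0124) were positive and Mapk14 (-0.36, edgeR adjusted p = 0.03) was negative. Tob2 (0.33, edgeR adjusted p = 0.02) of deadenylation was positive, and Cnot6l (-0.30, edgeR adjusted p = 0.028), a deadenylase, and Eif4enif1 (-0.33, edgeR adjusted p = 0.0132) were negative. The calls of Zfp36l1, Zc3h12a, Tnf, Ptgs2, Map2k3, Mapkapk3 and Eif4enif1 held in all 12 fits without 1 library, while the others were lost in 5 (Tob2), 6 (Cnot6l), 7 (Mapk14 and Nfkb1) and 9 (Nfkbid) of them. With limma on log2(TPM + 1), Zfp36l1, Tnf, Map2k3 and Mapk14 were called and the other 8 were not. With all libraries thinned to the smallest total, the calls of Mapk14, Cnot6l and Nfkbid were lost. With the mouse as a block, which pairs the M0 and M2 libraries, all 12 were called, and Zfp36, Patl1, N4bp1, Plau, Plaur, Myc, Cxcl3 and Dusp1 were called as well (edgeR adjusted p from 0.00509 for Plau to 0.0429 for Cxcl3 and Dusp1). Of the 12 genes, all but Cnot6l and Eif4enif1 were also called between KO and WT in M0. Only Tob2 and Eif4enif1 of them were called in M2. Since the same libraries enter these comparisons, the differences restate those values and are no separate result.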

How the results depend on the processing

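RLE size factors and no filter on low counts changed no call of the 10 genes, and thinning to equal depth ended that of Zfp36l2 in M0. With the replicate block 3 genes were called for the difference between the IL-4 responses in place of 2 (Zfp36 added, 0.37, adjusted p = 0.0274), and the block changed no other call of a member. As a description of the block between genotypes, WT and KO share only a number, and 1322 genes in place of 1256 were called in M0 and 413 in place of 344 in M2. For the difference, DESeq2 called 4 members and both limma fits 1. In M0 both limma fits called 3 members. With 1 library left out, the members called ranged from 3 to 5 in M0 and from 0 to 1 in M2. For all genes, counts that differed by over 1.5 times were 713 with DESeq2 and 70 and 57 with limma in M2, 752 and 700 with limma in M0, and 816 with DESeq2, 113 with both limma fits and 1003 with the mouse block for the difference against 416. Without 1 library they ranged from 461 to 1461 in M0, 25 to 761 in M2 and 183 to 643 for the difference.

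Values that changed sign were not called in either fit, with the widest change for Rc3h2, from 0.10 to -0.19. With limma on log2(TPM + 1) and log2(TPM + 0.1) these were Elavl1 (0 and 0) and Tia1 (0.02 and 0.02) between KO and WT in M2, Khsrp (-0.05 and -0.05) and Tia1 (-0.02 and -0.02) with IL-4 in WT, and Rc3h1 (-0.08 and -0.09) and Rc3h2 (-0.17 and -0.19) for the difference. Without 1 library the ranges with a change of sign were -0.06 to 0.01 for Elavl1 in M0, and in M2 -0.15 to 0.01 for Zfp36, -0.02 to 0.07 for Elavl1, -0.03 to 0 for Khsrp, -0.11 to 0.04 for Rc3h1 and -0.08 to 0 for Tia1. With IL-4 they were 0 to 0.03 for Khsrp in WT, and -0.12 to 0.03 for Rc3h1 and -0.07 to 0 for Tia1 in KO. For the difference they were -0.1 to 0.01 for Hnrnpd and -0.02 to 0.13 for Rc3h1. The cause was not tested. Taking all annotated 3'UTR bases in place of the longest 3'UTR gave the nonamer in the same number of members, 6, and in 8.9% of genes.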
